A study of Drosophila melanogaster with 3 samples.

Results

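The subject is a set of 32 genes of *Drosophila melanogaster* that drive and police the cell cycle: cyclins, cyclin-dependent kinases (Cdks) and their regulators, the E2F and retinoblastoma family, mitotic kinases, spindle checkpoint proteins, the anaphase-promoting complex (APC/C), and securin and separase. They were picked by name, 32 of 13968 protein-coding genes on the 7 chromosome arms, and all 32 symbols matched the gene annotation. A gene counted as bound where the summit of a peak lay within 500 bp of any of its annotated transcription start sites (TSSs).

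The protein mapped is Ets97D, also called Delg, tagged at its C-terminus with eGFP in a transgenic fly line (strain Delg-GFP). Chromatin immunoprecipitation with sequencing (ChIP-seq) used an antibody against GFP on whole embryos 0 to 24 h old of pooled sex, in 3 biological replicates that form 1 group. No second genotype, stage or treatment was part of the design, so values were compared between genes and replicates only. The collection spans all of embryogenesis and every tissue, and strong binding in few cells cannot be told apart from weak binding in many.

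Ets97D is an ETS-domain DNA-binding protein and the fly orthologue of the mammalian alpha subunit of GABP, also known as nuclear respiratory factor 2. ETS proteins recognise a GGAA core, and GABP favours CCGGAA. Cyclin-Cdk pairs drive DNA replication and mitosis, E2F factors switch on genes for replication, and the APC/C marks cyclins and securin for destruction so that sister chromatids part. In the fly embryo the first divisions run on maternal products, and zygotic control of the cycle follows.

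The authors' thresholded (optimal) set held 5595 peaks, and each carries a signal of ChIP against control whose scale is not stated. The 3 replicate lists held 24391, 28843 and 29122 regions, peaks and background together, and the 5595 strongest of each were used as that replicate's peaks. A replicate's signal is given below as relative signal, the strongest region within 500 bp of a TSS of the gene divided by the median of that replicate's 5595 strongest regions, so that 1 is a typical peak. No region was identical in position and signal between replicates.

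The DNA within 50 bp of 5 of the summits is shown first, because these are the strongest promoters among these genes or hold the palindrome TATCGATA, leaving out 1 chromosome arm that is not shown. They read 5′ to 3′ on the strand of the gene, with the summit at base 51 (dm6, sequence from NCBI Release 6). Capitals mark TATCGATA, its core CGATA, the word GGTCACAC and the ETS core CGGAA, on either strand. TATCGATA is the DNA replication-related element bound by the factor DREF, the insulator protein BEAF-32 also binds CGATA, and GGTCACAC is the core promoter word bound by M1BP. The windows are CycB3 (3R:24870858-24870958, minus strand), Rbf2 (3R:15965357-15965457, plus strand), polo (3L:20309909-20310009, plus strand), Cdk2 (3R:20735526-20735626, plus strand) and CycA (3L:11833526-11833626, minus strand).
CycB3: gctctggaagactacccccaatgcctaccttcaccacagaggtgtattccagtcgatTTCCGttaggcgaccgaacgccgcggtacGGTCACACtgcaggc
Rbf2: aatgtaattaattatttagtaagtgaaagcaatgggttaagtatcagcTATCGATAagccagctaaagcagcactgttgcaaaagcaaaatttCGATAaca
polo: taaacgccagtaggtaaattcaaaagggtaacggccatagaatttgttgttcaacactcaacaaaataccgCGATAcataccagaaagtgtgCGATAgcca
Cdk2: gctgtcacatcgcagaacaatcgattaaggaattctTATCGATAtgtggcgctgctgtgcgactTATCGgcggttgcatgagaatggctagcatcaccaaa
CycA: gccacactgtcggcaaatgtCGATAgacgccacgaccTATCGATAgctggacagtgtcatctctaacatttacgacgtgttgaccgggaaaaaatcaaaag
The TSS is base 90 in the Rbf2 window, base 98 in the Cdk2 window and base 49 in the CycA window, and it falls outside the windows of CycB3 and polo. In the Rbf2 window TATCGATA spans bases 49 to 56, over the summit. It spans bases 37 to 44 in the Cdk2 window and bases 38 to 45 in the CycA window. The polo window holds CGATA at bases 72 to 76 and 93 to 97 without the full palindrome. The CycB3 window holds no CGATA, has GGTCACAC at bases 87 to 94, and has CGGAA on the other strand at bases 58 to 62.

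Of the 32 genes, 24 (75.0%) had an optimal peak at a promoter, against 36.5% of all protein-coding genes. Giving each summit only to the gene of its nearest TSS left 21 (65.6%), against 27.5% of all genes. Replicate 1 called 22 of the genes, against 35.6% of all genes, while replicate 2 called 25, against 36.6%, and replicate 3 called 24, against 34.7%. The mean over replicates was 74.0% ± 4.77 of the 32 genes and 35.7% ± 0.957 of all genes (SD, n = 3). In all 3 replicates at once 21 genes (65.6%) were called, against 29.7% of all genes. Counting any pooled region, peaks and background together, 30 of the 32 (93.8%) had one, against 59.0% of all genes. No test was made on these counts, since the genes were chosen by name with earlier results of these data known.

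**Figure D1:**
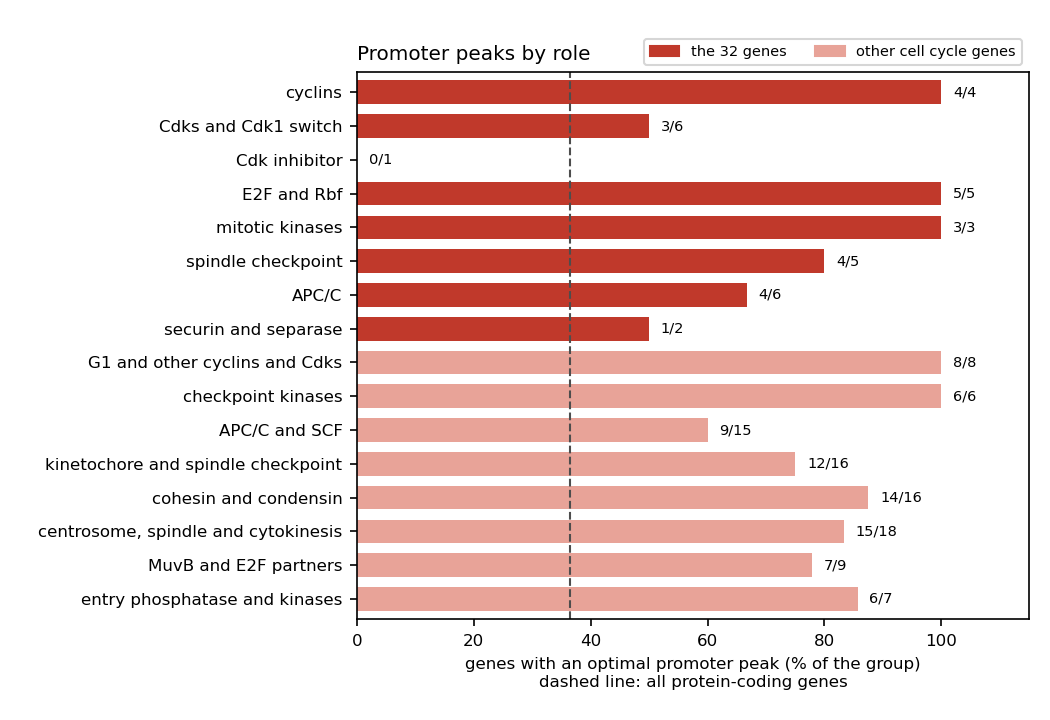
Share of genes with an optimal promoter peak (percent, horizontal axis) for each role of the 32 genes (dark bars) and for 8 groups of other cell cycle genes (pale bars), with the number bound of the number of genes at each bar and a dashed line at the 36.5% of all protein-coding genes. Cyclins, E2F and Rbf genes and mitotic kinases were bound without exception, and the Cdk inhibitor was not.

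All 4 cyclin genes had a promoter peak, and 3 of them had one in every replicate. Counts by role, here and below, stand beside 36.5% of all protein-coding genes, or 29.7% in every replicate. CycB and CycB3 encode mitotic cyclins that partner Cdk1. CycB had relative signals of 2.49, 3.44 and 2.77 in replicates 1, 2 and 3, a mean of 2.90 ± 0.489 (SD, n = 3). CycB3 had 2.95, 3.02 and 2.56, a mean of 2.84 ± 0.247. Their replicate ranges overlapped, so the order of these 2 genes, the highest of the set, is not resolved. CycA, which acts in replication and mitosis, had 1.65, 1.77 and 1.83. CycE, which with Cdk2 starts replication, had 0.877, 0.632 and 0.393. The replicate 3 value is that of another region, 36 bp upstream of the TSS of CycE-RF, CycE-RD and CycE-RC, and at the optimal CycE summit replicate 3 had 0.230. CycE thus lay below a typical peak in every replicate, reached the strongest set in 2 of them, and varied most of all bound members, with a highest value 2.23 times its lowest, or 3.81 times at the optimal summit. Its pooled signal of 92.3 stood just above 89.1, the lowest signal in the optimal set.

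The cyclin peaks sat close to the TSS. The CycA summit lay 2 bp downstream of the single TSS, in a region at 3L:11833517-11833686, and the CycB3 summit 92 bp upstream of its single TSS, in a region at 3R:24870769-24871046. CycB has 3 TSSs, and the summit lay 105 bp upstream of that of CycB-RA and CycB-RE, which is the most upstream, with no summit at CycB-RB or CycB-RC. CycE also has 3, and the summit lay 99 bp upstream of that of CycE-RA and CycE-RE, again the most upstream, in a region at 2L:15748024-15748473. The TSSs of CycE-RB and of CycE-RF, CycE-RD and CycE-RC had none in the optimal set.

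Among the Cdks and the enzymes that switch Cdk1 on and off, 3 of 6 genes were bound, all 3 in every replicate: Cdk2, Wee1 and Cdk1. With 6 genes this count cannot be set apart from the 36.5% of all genes. Cdk2, the kinase of CycE, had 2.09, 1.98 and 1.75, and a pooled signal of 317 at 3R:20735468-20735661, with the summit 47 bp upstream of its TSS. Wee1, a kinase that inhibits Cdk1, had 0.772, 1.15 and 1.13 (2L:6914003-6914452, summit 90 bp upstream). Cdk1 itself, the mitotic kinase, had 0.788, 1.01 and 0.643 (2L:10386131-10386580, summit 94 bp upstream). Cdk2 was above Cdk1 and Wee1 in each replicate and the ranges did not overlap, whereas those of Cdk1 and Wee1 did.

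The genes of both Cdc25 phosphatases, which activate Cdk1, had no optimal promoter peak, nor had Myt1, the other inhibitory kinase of Cdk1. At stg, the Cdc25 of embryonic divisions, the strongest pooled region within 500 bp had a signal of 26.4 and rank 21845 of 27625, and relative signals were 0.215, 0.190 and 0.252. At twe, the Cdc25 of meiosis, they were 0.228, 0.182 and 0.445. At Myt1 they were 0.495 in replicate 1 and 0.450 in replicate 3, with no region in replicate 2. Each of these values is below the lowest of the bound Cdk1, Cdk2 and Wee1. The single Cdk inhibitor, dap, which blocks CycE with Cdk2 and belongs to the p21 and p27 family, had 0.250, 0.456 and 0.347 and no optimal peak.

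All 5 genes of the E2F and retinoblastoma group were bound, and all 5 in every replicate. Dp, the dimer partner of both E2F proteins, had 2.46, 2.44 and 2.44, the closest agreement of any bound member, with a highest value 1.01 times its lowest. Rbf2, 1 of the 2 retinoblastoma-family repressors, had 2.61, 2.26 and 2.14. These 2 genes overlapped in range and, with CycB and CycB3, took the first 4 places. E2f1, the activating E2F, had 1.73, 1.35 and 1.38. E2f2, the repressing E2F, had 1.11, 0.921 and 0.906. Rbf, the other retinoblastoma-family gene, had 0.633, 1.03 and 0.846. In each replicate Rbf2 was above Rbf, and E2f1 above E2f2, with no overlap of their ranges.

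Which TSS was bound differed between these genes. E2f1 has 5 TSSs, and only the most upstream, that of E2f1-RF, had a summit, 196 bp upstream of it (3R:21660842-21661291). The TSSs of E2f1-RB, E2f1-RC, E2f1-RD, and of E2f1-RE with E2f1-RA had none. E2f2 has 2, and 1 peak at 2L:21156174-21156359 had its summit within 500 bp of both. The summit lay 22 bp upstream of E2f2-RA and 495 bp downstream of E2f2-RB, and the region did not reach the TSS of E2f2-RB. Dp was the only member with more than 1 optimal promoter peak: it had 4, at all 3 of its TSSs. The strongest, with pooled signal 416, had its summit 42 bp upstream of Dp-RA. Around Dp-RC lay a peak of 163 with the summit 215 bp upstream and a peak of 102 with the summit 401 bp downstream, and a peak of 104 had its summit 425 bp upstream of Dp-RB. The Dp-RA peak was the strongest of the 4 in every replicate, since the Dp-RC peak upstream had relative signals of 1.28, 0.553 and 1.06, the Dp-RB peak 0.634, 0.884 and 0.715, and the peak downstream of Dp-RC 0.278, 0.577 and 0.694. The single summits of Rbf (X:801457-801906) and Rbf2 (3R:15965297-15965513) lay 203 bp and 39 bp upstream.

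The 3 mitotic kinase genes were all bound, at unequal strength. Polo kinase acts at centrosomes, kinetochores and in cytokinesis, and polo had 2.16, 1.76 and 2.13. Aurora A matures centrosomes, and aurA had 1.56, 1.87 and 2.20. Aurora B is the kinase of the chromosomal passenger complex, and aurB had 0.540, 0.735 and 0.666, or 0.450 in replicate 1 at the optimal summit itself. The aurB range lay wholly below those of polo and aurA, which overlapped, and aurB reached the strongest set in 2 replicates only. The polo peak (3L:20309886-20310076) lay between its 2 TSSs, with the summit 88 bp upstream of polo-RB and 305 bp downstream of polo-RA. The summits of aurA (3R:11963023-11963187) and aurB (2L:10858082-10858531) lay 20 bp and 213 bp upstream of their single TSSs.

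Of the 5 spindle checkpoint genes, whose products hold back anaphase until kinetochores are attached, 4 were bound, and these 4 in every replicate. BubR1, part of the complex that inhibits the APC/C, had 1.79, 1.66 and 1.89. Bub3, its partner, had 1.62, 1.57 and 2.09. The gene of the inhibitor Mad2, mad2, had 1.64, 1.58 and 1.26, and Mad1, its kinetochore anchor, had 1.31, 1.65 and 1.52. All 4 lay above a typical peak in every replicate and their ranges overlapped pairwise in the order of their means. Bub1, the kinase that recruits the others, had no optimal peak, and its strongest pooled region, 324 bp upstream of a TSS, had a signal of 78.8 and rank 6293. Bub1 spread widely, at 0.265, 0.662 and 0.812, and was in the strongest set of replicates 2 and 3. Summits of the bound genes lay upstream of single TSSs, by 68 bp at BubR1, 136 bp at Bub3 (3R:29675332-29675781), 107 bp at mad2 (3L:5812975-5813424) and 179 bp at Mad1. The Bub3 and Mad1 summits were nearer to TSSs of Cap-D2 and Drep2, so neither gene counts as bound by nearest TSS only.

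Of 6 APC/C genes, 4 were bound, and these 4 in every replicate. The activators fzy, the fly Cdc20, and fzr, the fly Cdh1, had 1.20, 1.53 and 1.49, and 1.17, 1.14 and 1.10. The subunit genes Cdc27 and Cdc16 had 1.50, 1.13 and 1.38, and 1.45, 1.33 and 0.870. Neighbours in the order of their means overlapped, fzy lay just above fzr without overlap, and Cdc16 alone among them was below 1 in a replicate. Cdc23, another subunit of the same repeat-protein kind, had no region within 500 bp in any of the lists. The activator of female meiosis, cort, had none in the pooled list and 1 region in replicate 3, at 0.169. The fzr peak (X:4679626-4680075) lay 314 bp upstream of fzr-RA and none lay at fzr-RB. Single TSSs of fzy (2L:16310577-16311026), Cdc16 (3R:23280952-23281401) and Cdc27 (3L:7249323-7249434) had summits 154 bp, 24 bp and 15 bp upstream. The fzy summit was nearer to the TSS of cni, so fzy does not count as bound by nearest TSS only.

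The separase and securin genes both lay below a typical peak in every replicate. Separase cuts the ring that holds sister chromatids together, and securin holds separase back. The separase gene thr had a pooled signal of 98.7, and relative signals of 0.460, 0.545 and 0.701, or 0.453 in replicate 2 at the optimal summit itself, and was in the strongest set of 1 replicate. The securin gene pim had no optimal peak, with a strongest pooled region of 79.4 at rank 6252 and relative signals of 0.445, 0.696 and 0.520. Like thr, pim was in the strongest set of 1 replicate. The ranges of thr and pim overlapped, although only thr passed the authors' threshold. CycE and pim were therefore the members just inside and just outside that threshold, at pooled signals of 92.3 and 79.4.

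**Figure D2:**
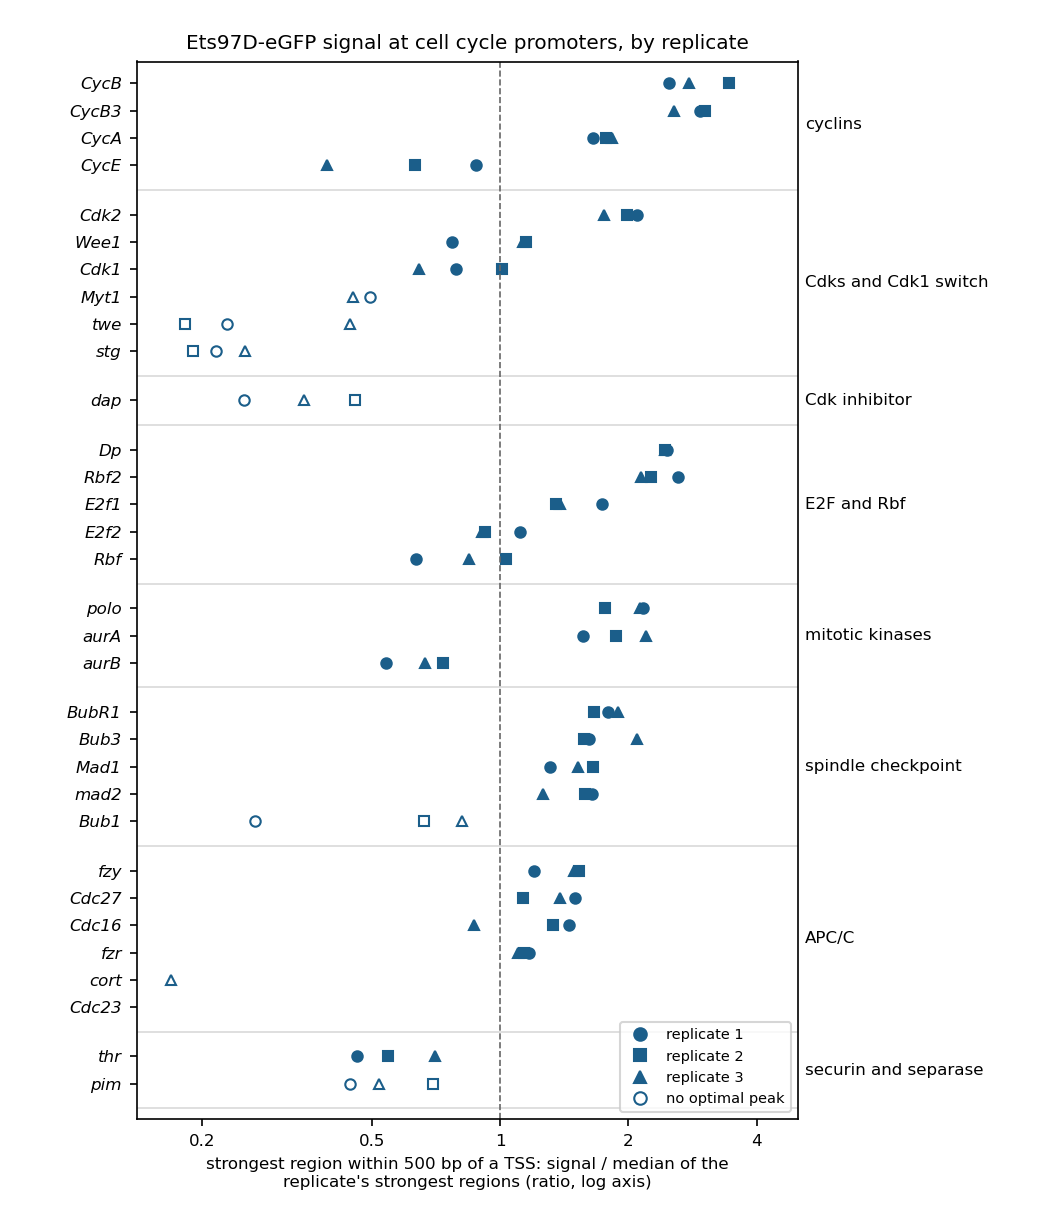
Relative signal of each of the 32 genes in replicates 1, 2 and 3 (circle, square and triangle), grouped by role, on a log axis, where the dashed line at 1 is that replicate's typical peak and open symbols are genes with no optimal promoter peak. CycB and CycB3 lie farthest right, aurB, CycE and thr lie left of the line in every replicate, and Cdc23 has no point.

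Over the 24 bound genes, 16 lay above the median of their replicate's strongest regions in all 3 replicates, 3 lay below it in all 3 (aurB, CycE and thr) and 5 fell on both sides (Cdc16, Wee1, E2f2, Rbf and Cdk1). That median covers regions at promoters and elsewhere. In the optimal set it was 162, against 173 at promoter peaks alone. The counts are not set beside those of all bound genes, so they describe the listed genes only. When the 24 were ordered by mean relative signal, 22 of 23 neighbouring pairs had overlapping replicate ranges. CycB3 and Dp were the exception. As a description across genes, which are not independent replicates, Spearman's rho between replicates was 0.903 for replicates 1 and 2, 0.868 for 1 and 3, and 0.934 for 2 and 3, over 24 genes. The highest replicate value was a median of 1.29 times the lowest.

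The 24 genes had 27 distinct promoter peaks, set here beside all 4118 optimal promoter peaks. The median pooled signal was 233 at the cell cycle peaks and 173 at all promoter peaks, a ratio of 1.34, and in the replicates' own regions the ratio was 1.39, 1.36 and 1.17 (mean 1.30 ± 0.120, SD, n = 3). Cell cycle peaks ran from 92.3 to 488, whereas all promoter peaks ran from 89.2 to 11499.9. Their strength was thus moderate: 17 of the 27 were above the median of all promoter peaks, and with all promoter peaks cut by signal into 5 equal parts, strongest first, 9, 6, 5, 2 and 5 fell in each. CycB, the strongest, stood at place 296 of 4118. Of the 27 peaks, 22 (81.5%) had a strong summit of all 3 replicates within 150 bp, against 74.5% of all promoter peaks.

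**Figure D3:**
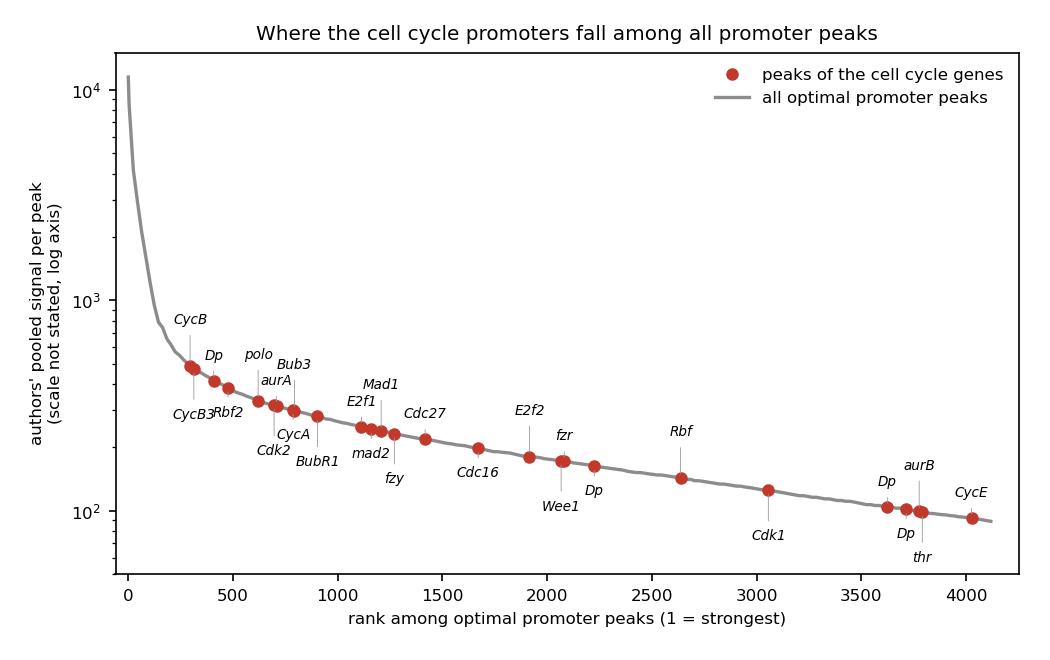
The authors' pooled signal (log axis, scale not stated) against rank for all 4118 optimal promoter peaks (grey line), with the 27 peaks of the cell cycle genes as red points. The points start at place 296 with CycB and end near the lower limit with CycE at 92.3, and none lies on the steep part at the left.

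Summits of the cell cycle peaks lay upstream of the nearest TSS of the gene, at a median of -92.0 bp. All promoter peaks were measured to the nearest TSS of any gene, at a median of -52.0 bp. Measured in that way, the median of the cell cycle peaks was -90.0 bp. In replicates 1, 2 and 3 the median for the cell cycle regions was -100, -107 and -68.0 bp. Upstream summits made up 25 of 27 (92.6%) by the TSSs of the members, and the exceptions were CycA and 1 Dp peak. Among all promoter peaks the share was 82.4% by the nearest TSS of any gene. Of 49 TSSs of the 32 genes 28 were bound (57.1%), against 32.7% of 19630 TSSs of all protein-coding genes. Genes with several TSSs were bound in 7 of 11 cases (63.6%) and genes with 1 TSS in 17 of 21 (81.0%). In CycB, CycE, E2f1, fzr and Dp, 5 of those 7 genes, the strongest peak was at the most upstream TSS. The shares of all genes by number of TSSs, or bound at the most upstream TSS, were not computed. These last counts therefore describe the listed genes only and show no preference.

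**Figure D4:**
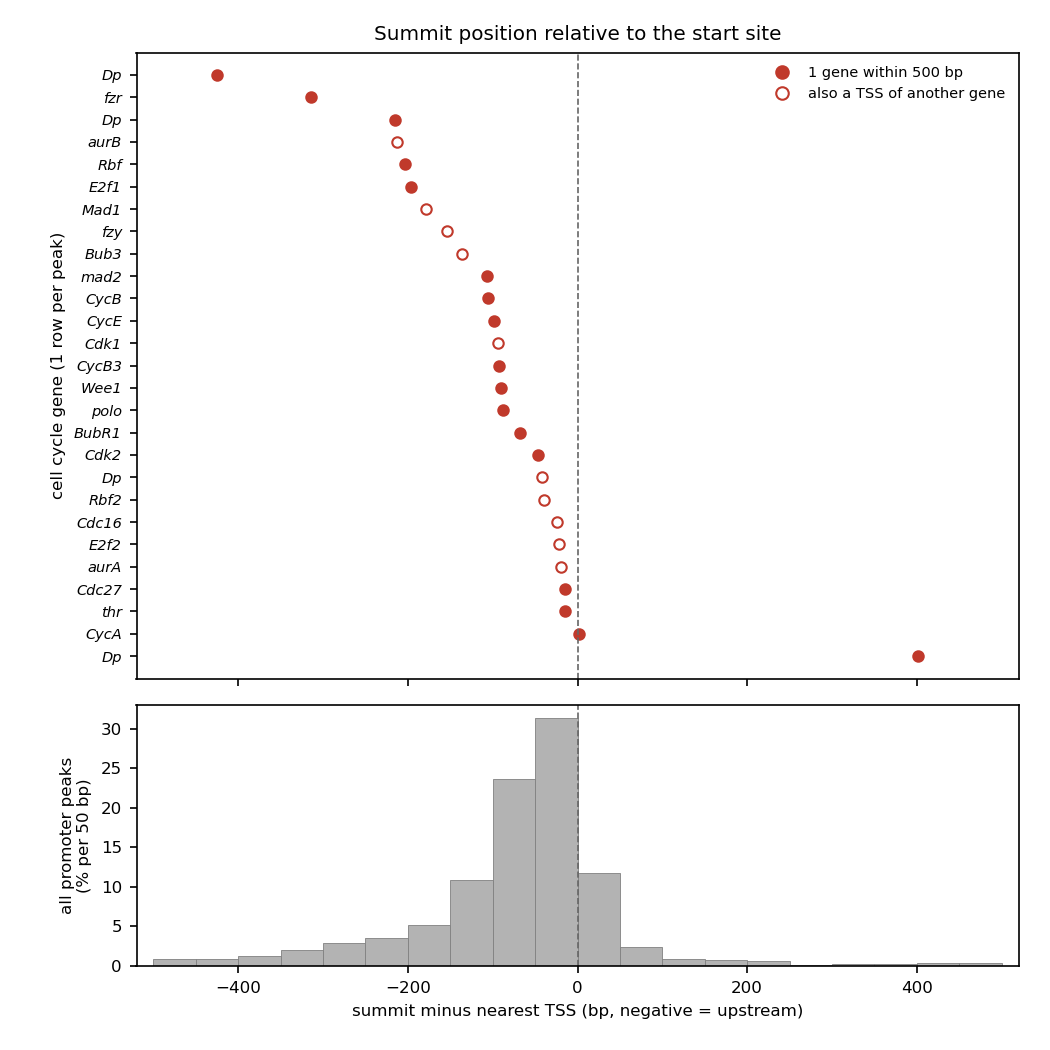
Position of each of the 27 summits relative to the nearest TSS of its gene (upper panel, bp, negative is upstream), with open circles where a TSS of another gene also lies within 500 bp. Below is the distribution for all promoter peaks relative to the nearest TSS of any gene (lower panel, percent of peaks per 50 bp). All points but CycA and 1 Dp peak lie left of 0.

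A TSS of another protein-coding gene lay within 500 bp of 10 of the 27 summits (37.0%), against 40.8% of all promoter peaks, so these peaks cannot be given to 1 gene. In all 10 the 2 genes diverge, and their TSSs were 56 to 442 bp apart. Dp shares its Dp-RA peak with Fsn and Rbf2 shares its peak with CG32856, each pair 95 bp apart. E2f2 and Mpp6, the closest pair, are 56 bp apart. In 3 pairs the other TSS was the nearer: the Bub3 summit was 136 bp from Bub3 and 94 bp from Cap-D2, a condensin subunit gene, the Mad1 summit 179 bp from Mad1 and 112 bp from Drep2, and the fzy summit 154 bp from fzy and 76 bp from cni, which encodes a cargo receptor of the secretory pathway. The member TSS was nearer at aurA (with CG3281, 319 bp apart), Cdc16 (with orb, 345 bp), Cdk1 (with the mitochondrial ribosomal protein gene mRpS7, 400 bp) and aurB (with Stam, 442 bp). Median pooled signal was 236 at the 10 shared and 219 at the 17 unshared cell cycle peaks, against 181 and 167 among all promoter peaks.

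The letters beneath the summits held little of the ETS consensus. Neither CCGGAAG nor CCGGAA occurred on either strand within 50 bp of any of the 27 summits, against 0.801% and 3.62% of all promoter peaks and 0.399% and 2.71% of 11280 TSSs of genes with no optimal promoter peak. A count of 0 in 27 allows a share of up to 11.1% when the limit is set at 3 counts, and the Wilson upper limit is 12.5%, so 27 peaks cannot set this apart from the share of all promoter peaks. Within 100 bp CCGGAA appeared at 1 peak, that of CycE (3.70%), against 6.36% of all promoter peaks. The shorter cores were added after the data were seen. CGGAA was present at 1 peak, CycB3 (3.70%, Wilson 95% interval 0.657 to 18.3), against 15.4% of all promoter peaks and 17.0% of unbound TSSs. The bare core GGAA was present at 10 (37.0%, 21.5 to 55.8), against 51.2% and 53.5%. Both shares moved with the window and stayed below those of all promoter peaks: CGGAA was at 5 cell cycle peaks within 100 bp (18.5%, against 27.9%), and GGAA was at 18.5% within 25 bp and 66.7% within 100 bp, against 30.3% and 75.8%.

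Words of core promoters were at more of the 27 summits than CCGGAA or CGGAA, though only CGATA was at more than GGAA. CGATA occurred at 13 of the 27 cell cycle summits (48.1%, 30.7 to 66.0), against 37.7% of all promoter peaks and 17.0% of unbound TSSs. The full palindrome TATCGATA, which contains CGATA, occurred at 4, those of Rbf2, Cdk2, CycA and BubR1 (14.8%, 5.92 to 32.5), against 9.91% and 2.04%. The other 9 peaks with CGATA were those of CycB, polo, aurA, mad2, Cdc27, E2f2, fzr, thr and the Dp-RA peak. GGTCACAC occurred at CycB3, fzr and thr (11.1%, 3.85 to 28.1), against 7.72% and 1.98%. The TATA-box word TATAAA occurred at 7 (25.9%, 13.2 to 44.7), against 12.9% and 19.7%, namely Bub3, Mad1, fzy, Cdc27, fzr, aurB and the peak downstream of Dp-RC. Of these 7 summits only that of Cdc27 lay within 50 bp of a TSS of its gene. The windows at unbound TSSs are centred on the TSS, so the positions compared differ. Whether the word acts as a TATA box at these peaks was not tested. Each interval for the cell cycle peaks includes the share of all promoter peaks, except that for TATAAA, which starts just above it. That difference depended on the window, since TATAAA was at 18.5% of cell cycle peaks within 25 bp and 33.3% within 100 bp, against 6.63% and 27.3% of all promoter peaks. The differences in CGATA and TATCGATA were likewise small at 100 bp, where CGATA was at 55.6% of cell cycle peaks, against 52.1%, and TATCGATA at 18.5%, against 15.0%. The intervals cover counting error over peaks only.

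Among words tied to the cell cycle by earlier knowledge, TATCGATA aside, TTTGAA and TTCGAA were near the shares of all promoter peaks within 50 bp. The E2F words were too rare at promoters for 27 peaks to compare. The cell cycle homology word TTTGAA occurred at 5 peaks (18.5%), those of polo, E2f1, Cdc16, CycE and the Dp-RB peak, against 16.2% of all promoter peaks and 13.1% of unbound TSSs. Its variant TTCGAA occurred at 1, the Dp-RB peak (3.70%), against 4.37% and 5.40%. The E2F words TTTCGCGC, then TTTGGCGC, and TTTCCCGC were at none of the 27, against 0.413%, 0.947% and 0.656% of all promoter peaks. The Wilson upper limit for each is 12.5%, so 27 peaks cannot set their absence apart from those shares. Of the other words searched, CAGCTG occurred at 3, those of E2f1, Cdc16 and the Dp-RA peak (11.1%), against 9.08%. The early-activation word CAGGTAG, the AP-1 word TGACTCA and the GA repeat GAGAGAG were at none, against 0.364%, 1.12% and 1.24%, with the same limit. Wee1, Rbf, Cdk1 and the Dp-RC peak upstream had none of the 15 words first searched.

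CGATA went with the stronger and shorter regions among the cell cycle peaks. The 13 with CGATA had a median pooled signal of 301, and the 14 without it 168, whereas for all promoter peaks the medians were 180.3 and 168. In the optimal set most regions have a fixed length of 450 bp with the summit in the middle, and the rest are mostly shorter, a split made after the data were seen. Of the 27 cell cycle peaks 11 were shorter, at 112 to 329 bp (CycB, CycB3, Dp-RA, Rbf2, polo, Cdk2, aurA, CycA, BubR1, Cdc27 and E2f2), and 10 of these 11 held CGATA (90.9%), all but CycB3. Of the 16 with 450 bp, 3 held it (18.8%), those of mad2, fzr and thr. Among all promoter peaks the shares were 453 of 1132 shorter regions (40.0%) and 1100 of 2986 others (36.8%). Shorter regions were also the stronger ones, so strength and length are not separate traits here. Median signals were 317 in shorter and 168 in longer cell cycle regions, and 315 and 145 among all promoter peaks. Median summit position moved with the same split, at -42.0 bp in the 11 shorter and -145 bp in the 16 longer cell cycle regions. Among all promoter peaks, measured to the nearest TSS of any gene, it was -57.0 and -49.0 bp. The part of region length and of signal in the CGATA counts was not tested.

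Other genes of the cell cycle, 95 in 8 groups, gave a like picture: 77 (81.1%) had an optimal promoter peak, against 36.5% of all genes. In all 3 replicates at once 64 were called (67.4%), against 29.7% of all genes. By nearest TSS only, 55 of the 95 remained (57.9%), against 27.5% of all genes. All 8 other cyclin, Cdk and Cks genes were bound, led by Cks30A, a small Cdk-binding subunit, at a relative signal of 1.86 ± 0.470 (SD, n = 3). All 6 checkpoint kinase and mediator genes were bound, led by Claspin at 1.63 ± 0.152. Of 15 further APC/C and SCF genes 9 were bound, led by vih, an APC/C ubiquitin-conjugating enzyme, at 2.06 ± 0.398, while APC10 and APC7 were among the 6 without. This is the lowest share of the 8 groups. Among the 32, 4 of 6 APC/C genes were bound. The Cdk, Cdk inhibitor, spindle checkpoint, and securin and separase roles among the 32 also had genes with no peak.

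Structural genes of chromosomes and spindles included signals above those of the 32, in peaks shared with other genes. The counts of bound genes below stand beside 36.5% of all protein-coding genes. Of 16 cohesin and condensin genes 14 were bound, led by Cap-H2 at 3.49 ± 0.547 and pds5 at 3.16 ± 0.591, each sharing its peak with another gene, MED7 and Mppe. Their summits lay at -162 bp from Cap-H2 and -165 bp from pds5. Of 18 centrosome, spindle and cytokinesis genes 15 were bound, led by sti, the citron kinase of cytokinesis, at 4.62 ± 1.01, with a peak shared with tral. Of 16 kinetochore genes 12 were bound, led by Spc105R at 1.99 ± 0.364 and Spc25 at 1.98 ± 0.180. Of 9 MuvB and E2F partner genes 7 were bound, led by mip40 at 2.16 ± 0.224, and the testis genes aly and tomb were not. Of 7 phosphatase and kinase genes of mitotic entry 6 were bound. The highest, at 13.9 ± 0.702, was mts, the catalytic subunit of phosphatase 2A, in a peak shared with Rack1. Its summit lay at -392 bp from mts, and that of the sti peak at -32 bp from sti. Spc25, mip40 and vih also shared their peaks, with grsm, Tab2 and CG10646. None of the shared peaks of Cap-H2, pds5, sti, mts, Spc25, mip40 and vih can be given to 1 gene.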

How the data were processed

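ChIP-seq region lists of Ets97D-eGFP in 3 biological replicates of whole embryos were used on the dm6 build. Per the file headers, the authors derived each replicate's list of peaks and background from its alignment and a control, a pooled list from all replicates, and an optimal set by thresholding the irreproducible discovery rate (IDR). The signal per region is the authors' deposited value, and its scale is not stated. The aligner, the peak caller, their versions and the IDR threshold were not given in the sources used here. Because no read counts are listed, depth is unknown and signals carry no counting interval. Control libraries, signal tracks and the dm3 lists were not analysed here, and tissue identity could not be checked from region lists.

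A summit is the region's deposited start plus column 10. The optimal peaks were identical to the 5595 strongest of 27625 pooled regions. TSSs are those of protein-coding transcripts in Ensembl release 115, and sequence is NCBI Release 6, whose arm lengths contain all regions. Replicate summits were matched within 150 bp. Both strands were searched for words up to 50 bp from summits, or of TSSs of genes with no optimal promoter peak, with Wilson 95% intervals. Another gene was named where its TSS lay within 500 bp of a summit, or as 1 of up to 3 strongest bound and 2 unbound genes per group, of which some are given. Of 96 other cell cycle genes listed, 1 matched through a synonym and 1 (SA) did not match. The members, gene groups and words were chosen with earlier results of these data known. With 1 group there was no comparison to test, so no p-value is given. Alternatives were other promoter zones, nearest TSS, list sizes, windows and leaving out replicates. Scripts (Python 3.11.15, NumPy 2.4.6, pandas 2.3.3, SciPy 1.17.1) were tested on simulated data.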

Additional observations from a re-analysis of the deposited data

How the results depend on the processing

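All counts over the 32 genes stayed within 1.5 times their value under each alternative run. Part of this was fixed in advance, since a count of genes cannot exceed 32. Wider zones, full or pooled lists, and leaving a replicate out of the count in all 3 replicates can only keep or raise a count. The 24 genes with an optimal promoter peak became 23 with a 250 bp zone, 25 with 1000 bp, 21 by nearest TSS only, 19 with the stronger 50% of peaks, 30 with all pooled regions, and 21 to 22 without any 1 replicate. The 21 genes in all 3 replicates became 16 with sets of 2797 regions and 29 with full lists, and 21 to 23 without a replicate. The ratio of median signals, 1.34, ran between 1.26 and 1.38, and the median summit position between -104 and -84.0 bp. Peaks shared with another gene numbered 7 at 250 bp and 12 at 1000 bp. CGATA was at 37.0% of cell cycle summits within 25 bp, against 22.9% of all promoter peaks, and at 55.6% within 100 bp, against 52.1%. Without a replicate it was at 43.8% to 49.1%. TATCGATA was at 11.1% within 25 bp, against 4.61%, and at 18.5% within 100 bp, against 15.0%, and at 11.8% to 12.9% without a replicate. Of 228 further alternatives for single genes and single words, 37 moved by more than the replicate spread or interval, most of them because relative signals were divided by the median of the full list instead, which rescales all genes of a replicate alike. Within 25 bp GGTCACAC was at 1 peak (3.70%), against 3.91% of all promoter peaks, so the higher share seen within 50 bp was not there, and TTTGAA was at none, against 7.31%. TATAAA was at 20.7% to 26.9% of the regions at the replicates' own summits. CGGAA at 100 bp and GGAA at 25 and 100 bp also moved, as given with those words. No paired analysis was possible because all samples belong to 1 group. Without depth, a gene with no region cannot be told apart from one below detection.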

Other observations

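Outside promoters, the strongest optimal region inside these genes or within 1000 bp past their ends lay past the end of CycB. Optimal peaks within 1000 bp downstream of a gene's end were looked for after the data were seen. Regions over 500 bp upstream of the genes are not covered here. The CycB region (2R:22802826-22803114) had a pooled signal of 560.4 at rank 283, above the 488 of the CycB promoter peak. Relative signals were 3.19, 2.67 and 4.07 in replicates 1, 2 and 3 (mean 3.31 ± 0.710, SD, n = 3), against 2.49, 3.44 and 2.77 at the promoter, and the ranges overlap. Its summit lay 563 bp past the end of CycB and 3345 bp from the nearest protein-coding TSS, which is that of CycB itself. CGATA and TTTGAA lay within 50 bp of the summit.

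E2f1, bound at a promoter, and stg, without an optimal promoter peak, also had optimal regions elsewhere. The only optimal peak inside a gene body and over 500 bp from every TSS of the gene was in E2f1 (3R:21626448-21626897), 6020 bp from its nearest TSS, at relative signals of 0.762, 0.860 and 0.587. At stg, with no promoter peak, a region of pooled signal 118 lay 240 bp past the gene's end and 1135 bp from the TSS of SP1029, at 0.803, 0.611 and 0.808. In each replicate this was above the 0.215, 0.190 and 0.252 at the stg promoter. E2f2 had a region of pooled signal 119 located 141 bp past its end and 2080 bp from a TSS. Downstream regions of polo, fzr, cort and E2f1 lay within 500 bp of TSSs of alphaSnap, CG3009, CG34310 and InR.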
